A study of Mus musculus with 4 samples.

Results

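Conventional NK cells of the mouse liver were taken from single-cell RNA libraries of non-parenchymal cells, and they made up 1586 of the 82905 cells that passed the filters. A cell was kept with at least 500 UMIs (unique molecular identifiers, the count of captured transcripts), at least 300 genes and at most 15% mitochondrial UMIs. It was called a conventional NK cell with at least 1 UMI of Ncr1 or Klrb1c (the activating receptor NKp46 and the C57BL/6 marker NK1.1), at least 2 UMIs summed over Klra8, Klra4 and Eomes, at most 1 UMI of the CD3 chains, no UMI of Cd79a or Stab2, and fewer than 5 UMIs of the C1q chains. The rule found 527 cells in the 12-week MASH library, 413 in the 12-week chow library, 187 in the 24-week MASH library and 459 in the 24-week chow library. Measured values chose these cells, the members having been selected on the UMIs of those genes, so the 5 genes of the positive part of the rule are given as a description.

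Conventional NK cells are circulating cytotoxic lymphocytes without a rearranged antigen receptor. They kill target cells by releasing perforin and granzymes or through death ligands, secrete interferon-gamma and chemokines, and depend on the T-box factors Eomes and T-bet. In mice the Ly49 receptors of the Klra genes, most of which recognise MHC class I, set their reactivity, and maturation runs from CD27-bearing cells to CD11b- and KLRG1-bearing cells. The liver also holds ILC1, a tissue-resident relative that shares NKp46 and NK1.1 but lacks Eomes and carries CXCR6 and CD49a.

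Both MASH groups were male C57BL/6J mice put on the FAT-MASH model from 8 weeks of age. This model joins a Western diet (1.25% cholesterol, 21.1% fat and, as the main sugar, 41% sucrose), a fructose and glucose drink, and weekly low-dose carbon tetrachloride injected into the peritoneum. The chow groups were mice of the same sex, strain and starting age fed regular chow, and livers were taken at 12 or 24 weeks in both arms. Diet, sugar drink and carbon tetrachloride were given together, so their parts cannot be told apart. Livers of all groups stayed on ice overnight before digestion with collagenase IV and DNase I, and the cells were taken from a Percoll gradient after red cell lysis. A share of cells therefore describes this suspension, and fewer cells of a type in the liver cannot be told apart from poorer recovery of that type.

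Klra8 (Ly49H, an activating receptor) and Klra4 (Ly49D, also activating) chose most of the cells, and their neighbour Klra9 (Ly49I, an inhibitory receptor) was lower in both MASH libraries. The 250 bases upstream of their start sites are printed to show how alike these neighbouring genes are there. All lie on the minus strand of chromosome 6 in RefSeq's GRCm38.p6: Klra8 at chr6:130129899-130130148, Klra4 at chr6:130067272-130067521, Klra9 at chr6:130193113-130193362 and Klra3 (Ly49C, inhibitory) at chr6:130337627-130337876. Capitals mark a block of 17 bases shared by all 4 windows.
Klra8: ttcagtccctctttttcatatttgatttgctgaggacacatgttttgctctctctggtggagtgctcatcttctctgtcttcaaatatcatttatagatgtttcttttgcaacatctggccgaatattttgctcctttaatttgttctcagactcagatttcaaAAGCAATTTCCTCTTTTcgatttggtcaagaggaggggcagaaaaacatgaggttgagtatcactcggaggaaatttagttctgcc
Klra4: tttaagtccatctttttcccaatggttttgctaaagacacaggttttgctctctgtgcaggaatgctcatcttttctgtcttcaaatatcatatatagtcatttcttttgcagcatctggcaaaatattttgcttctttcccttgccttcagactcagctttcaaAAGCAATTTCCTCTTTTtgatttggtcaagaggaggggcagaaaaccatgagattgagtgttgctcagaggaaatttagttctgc
Klra9: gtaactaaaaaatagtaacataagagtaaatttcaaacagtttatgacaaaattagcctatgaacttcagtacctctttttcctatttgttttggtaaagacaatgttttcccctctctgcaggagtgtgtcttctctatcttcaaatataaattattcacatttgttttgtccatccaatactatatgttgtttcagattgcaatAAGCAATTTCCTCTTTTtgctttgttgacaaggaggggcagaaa
Klra3: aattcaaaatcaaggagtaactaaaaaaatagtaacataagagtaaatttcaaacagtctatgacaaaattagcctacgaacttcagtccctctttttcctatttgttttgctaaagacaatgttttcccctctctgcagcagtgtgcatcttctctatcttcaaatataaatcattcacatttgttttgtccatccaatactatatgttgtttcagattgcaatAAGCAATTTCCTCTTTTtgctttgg
Searched on both strands, the block AAGCAATTTCCTCTTTT was present in 6 of 27025 upstream windows of the same kind (0.0222%), and all 6 belonged to Ly49 genes, of which 11 had a window. Its last base lay 69 bases before the start site in Klra8, 68 in Klra4, 27 in Klra9 and 8 in Klra3. Counted over all alignment columns, gaps included, the Klra8 and Klra4 windows were 84.5% identical and the Klra9 and Klra3 windows 83.6%. The other pairs were 41.9% to 48.6% identical, with 140 identical bases over 334 columns for Klra8 and Klra3. The block lay at different distances from the start site, so windows offset against each other gained gap columns. The lower values therefore do not measure how alike the matched bases are. No source used here tells how reads that match several Klra genes were counted, and counts of single Ly49 genes are uncertain where paralogs are alike.

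There was 1 library per combination of arm and week, so no difference between arms has a replicate check and no p-value is given. Intervals are 95% exact binomial or Poisson-type intervals that cover counting error only, and the library, its processing run and the group cannot be told apart. Antibody hashtags were used in every library, 3 per library at 12 weeks and 8 at 24 weeks. What a hashtag stands for is not labelled, and hashtag values are given as spread within a library and never as replicates. Cells passing numbered 17225 and 19953 in the MASH libraries, against 18436 and 27291 in the chow libraries, at 12 and 24 weeks. Median depth was 3304 and 3464 UMIs per cell in MASH, against 2096 and 2356 UMIs in chow. The 12-week MASH matrix was unfiltered and held far more columns than the barcode list deposited with it, so its cells were taken from the columns by the same filters as in the other libraries and could not be named. Pairs of libraries shared 478 to 736 cell barcodes, between 2.44% and 3.96% of either library. For 12-week MASH that count used the listed barcodes. Scrublet marked 10.6% to 23.9% of cells as doublets, the highest share being in the 24-week chow library.

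The cells fitted their label on markers that the rule did not use. Gzma, the granule protease granzyme A, reached 8443 CPM (the gene's UMIs scaled to a common total) in 12-week MASH NK cells, against 470 CPM over all cells of that library. In 24-week MASH the values were 6407 CPM in NK cells and 212 CPM over all cells. The chow libraries gave 11593 CPM at 12 weeks and 11220 CPM at 24 weeks in NK cells, against 670 and 562 CPM over all cells. In cells thinned to 1000 UMIs each, Gzma was found in 91.6% of 12-week MASH and 98.1% of 12-week chow NK cells, against 2.6% and 2.8% of B cells, which do not make it. At 24 weeks it was found in 77.7% of MASH and 95.5% of chow NK cells, against 0.6% and 2.6% of B cells. Of 20 measured NK identity genes outside the rule, including Klrd1, Klrk1, Klre1, Tyrobp and Il2rb, most kept similar levels in the 2 arms, as described with the receptors.

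Depth and mixed cells have to be read with every value. NK cells had a median of 3138 UMIs in 12-week MASH against 2041 UMIs in 12-week chow, and 3829 UMIs in 24-week MASH against 2170 UMIs in 24-week chow. A few very deep cells weighed most in the smallest group: 20 of the 187 NK cells of 24-week MASH held more than 10000 UMIs and 31.9% of that group's UMIs. In the other groups such cells held 12.1% (12-week MASH), 4.34% (12-week chow) and 9.21% (24-week chow) of NK UMIs. Multiple hashtags were called on 21.1% of 12-week MASH and 16.7% of 12-week chow NK cells, and on 25.7% of 24-week MASH and 15.03% of 24-week chow NK cells. For this reason 4 alternatives are named with the main genes whose calls they end: cells thinned to 1000 UMIs before the rule, cells above 10000 UMIs left out, the mean over cells in place of summed counts, and cells with 5 or more UMIs of macrophage, neutrophil, endothelial or stellate genes left out.

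Cells entered the rule along different routes. In 12-week MASH 56.4% of NK cells had UMIs of both a Ly49 gene and Eomes, 35.9% of Ly49 genes only and 7.78% of Eomes only. In 12-week chow these shares were 49.6%, 44.8% and 5.57%. In 24-week MASH they were 50.8%, 39.6% and 9.63%, against 44.4%, 51.9% and 3.70% in 24-week chow. Klra4 without Klra8 marked 11.4% of MASH and 16.5% of chow NK cells at 12 weeks, and 6.95% of MASH and 14.2% of chow NK cells at 24 weeks. Just outside the threshold, with 1 UMI over Klra8, Klra4 and Eomes, lay 79 cells in 12-week MASH, 89 in 12-week chow, 46 in 24-week MASH and 114 in 24-week chow. Just inside it, with 2 UMIs, lay 70, 66, 27 and 72 cells in the same order. Gzma in the cells just outside was 5989 CPM in 12-week MASH, 10517 CPM in 12-week chow, 3349 CPM in 24-week MASH and 11985 CPM in 24-week chow. Just inside it was 7617, 12028, 3908 and 13191 CPM in the same order. The step from 1 to 2 UMIs therefore did not separate granzyme A-rich from granzyme A-poor cells in any library. Further from the threshold the cells differed more. Gzma was 1415, 4668, 739 and 4216 CPM in cells with 0 UMIs, in the same order. With 3 or more UMIs it was 8571, 11516, 6858 and 10938 CPM.

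The share of conventional NK cells was higher in MASH at 12 weeks and lower in MASH at 24 weeks. NK cells were 3.06% (2.81% to 3.33%) of 12-week MASH cells against 2.24% (2.03% to 2.46%) of 12-week chow cells, a ratio of 1.37 (1.20 to 1.56). They were 0.937% (0.808% to 1.08%) of 24-week MASH cells against 1.68% (1.53% to 1.84%) of 24-week chow cells, a ratio of 0.557 (0.468 to 0.662). The 12-week difference depended on depth. With every cell thinned to 1000 UMIs before the rule, 1.59% of MASH and 1.51% of chow cells qualified at 12 weeks, a ratio of 1.05, and 0.444% of MASH and 1.02% of chow cells at 24 weeks, a ratio of 0.435. Over all alternatives the ratio ran from 1.05 to 1.46 at 12 weeks and from 0.435 to 0.630 at 24 weeks. By hashtag the share was 2.91% to 3.88% in 12-week MASH against 2.12% to 2.71% in 12-week chow, without overlap. At 24 weeks it was 0.563% to 1.35% in MASH against 1.23% to 2.5% in chow, with a narrow overlap.

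**Figure D1:**
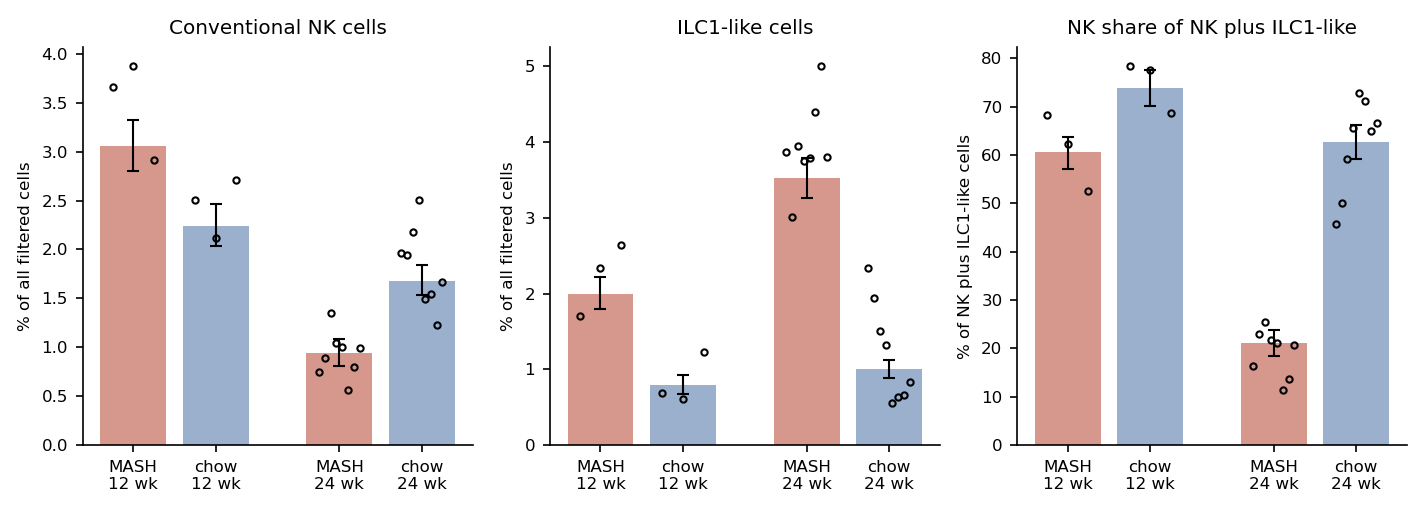
Share of conventional NK cells among all filtered cells (left, %), share of ILC1-like cells (middle, %) and NK cells as % of NK plus ILC1-like cells (right). Bars are the 4 libraries with exact 95% binomial intervals, points are single hashtags within a library; the NK share of the pair of types was 21.0% in 24-week MASH and 62.7% in 24-week chow.

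Set against their tissue-resident relatives, NK cells were fewer in MASH at both weeks. ILC1-like cells were taken by the same NK receptor genes, no UMI of Klra8, Klra4 or Eomes, and at least 2 UMIs over Cxcr6, Itga1, Tmem176a, Tmem176b and Cd200r1. They made up 2.0% of 12-week MASH and 0.792% of 12-week chow cells, a ratio of 2.52 (2.07 to 3.08), and 3.52% of 24-week MASH and 1.00% of 24-week chow cells, a ratio of 3.52 (3.05 to 4.06). There were 1.53 NK cells per ILC1-like cell in 12-week MASH against 2.83 in 12-week chow, an odds ratio of 0.542 (0.426 to 0.687). At 24 weeks there were 0.266 in MASH against 1.68 in chow, an odds ratio of 0.158 (0.126 to 0.199). Among NK plus ILC1-like cells, NK cells were 60.5% in 12-week MASH and 73.9% in 12-week chow, and 21.0% in 24-week MASH and 62.7% in 24-week chow. By hashtag the 24-week values were 11.4% to 25.5% in MASH against 45.6% to 72.7% in chow, without overlap. Thinned cells gave an odds ratio of 0.803 at 12 weeks and 0.147 at 24 weeks, so the 12-week value was the one that moved with depth.

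Genes were compared within NK cells as CPM of the NK total, and a gene was called where the arms differed at least 1.5-fold and the pair of libraries held at least 100 UMIs of it. At 12 weeks 4190 genes were compared, of which 3.44% were called higher and 3.75% lower in MASH. At 24 weeks 3370 genes were compared, of which 3.56% were called higher and 4.99% lower. The median log2 ratio over all compared genes was -0.06 at 12 weeks and -0.03 at 24 weeks. The counts for each gene group are read against these shares.

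Few cytotoxic genes differed 1.5-fold between the arms. Of 13 measured genes, 1 was called lower and none higher at 12 weeks, and 3 were called lower and 1 higher at 24 weeks, with median log2 ratios of -0.33 and -0.25. Ratios of 9 of the 13 were below 1 at both weeks. By the mean over cells the 24-week median was -0.065, and each of the lower calls at 24 weeks ended under at least 1 alternative. Fasl, the ligand of the death receptor Fas, fell in both comparisons. It stood at 104 CPM in 12-week MASH against 174 CPM in 12-week chow (ratio 0.596, 0.485 to 0.731), and hashtag values of 82.6 to 132 CPM in MASH lay below 150 to 199 CPM in chow. At 24 weeks Fasl was at 58.4 CPM in MASH against 89.4 CPM in chow (ratio 0.653, 0.466 to 0.906), but the ratio was 0.863 without the cells above 10000 UMIs and 0.761 without cells rich in other-cell UMIs, which ends the call. Fasl hashtags overlapped at 24 weeks, at 0 to 111 CPM in MASH against 46.9 to 233 CPM in chow.

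Gzma fell at 24 weeks, to 6407 CPM in MASH against 11220 CPM in chow, a ratio of 0.571 (0.554 to 0.588). By the mean over cells the Gzma ratio was 0.737, without the deepest cells 0.701, without cells rich in other-cell UMIs 0.687 and in thinned cells 0.885, so each of these ends the call. At 12 weeks Gzma stood at 8443 CPM in MASH against 11593 CPM in chow, a ratio of 0.728 (0.711 to 0.746) that did not reach 1.5-fold but kept between 0.712 and 0.772 under every alternative tried. The 12-week hashtags ran from 8197 to 10648 CPM in MASH against 11474 to 12442 CPM in chow, without overlap. At 24 weeks MASH hashtags ran from 5595 to 14926 CPM, across the chow range of 10937 to 14188 CPM.

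Gzmb, the granzyme that activates caspases, had 704 CPM in 12-week MASH against 926 CPM in 12-week chow (ratio 0.761) and 474 CPM in 24-week MASH against 774 CPM in 24-week chow (ratio 0.613, 0.547 to 0.686). The 24-week call ended in thinned cells (0.935), by the mean over cells (0.837), without the deepest cells (0.800), without cells rich in other-cell UMIs (0.783) and with single-hashtag cells not marked by Scrublet (0.769). Prf1, which encodes the pore-former perforin, was below 1.5-fold at both weeks, with 635 CPM in MASH against 850 CPM in chow at 12 weeks (ratio 0.747) and 495 CPM in MASH against 715 CPM in chow at 24 weeks (ratio 0.691). Nkg7, a granule membrane protein, had ratios of 0.779 and 0.843 at 12 and 24 weeks. Lamp1, a lysosomal membrane protein, was the group's higher gene at 24 weeks, at 173 CPM in MASH against 107 CPM in chow (ratio 1.61). Without the deepest cells the Lamp1 ratio was 1.33, which ends the call.

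**Figure D2:**
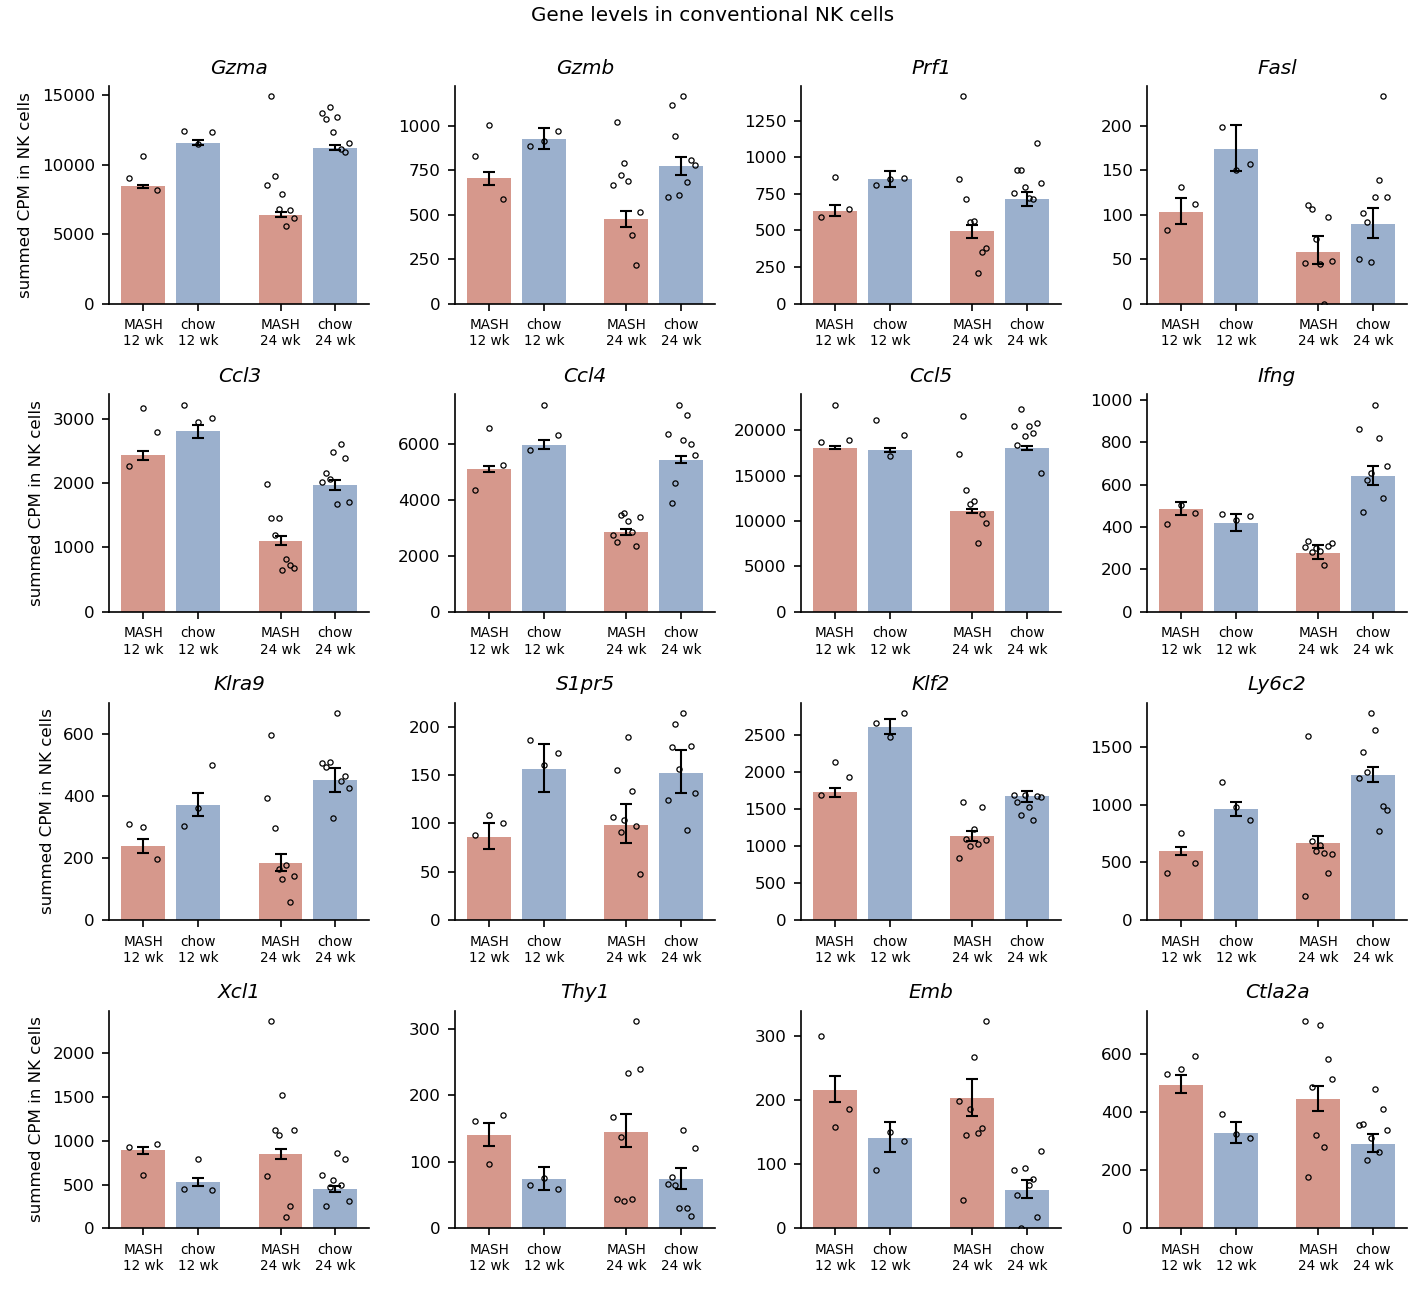
Summed CPM of 16 genes in conventional NK cells of the 4 libraries, MASH left of chow at each week. Bars carry exact 95% Poisson intervals and points are single hashtags; Ifng and Ccl4 hashtags of 24-week MASH all lie below those of 24-week chow, while Gzma hashtags of these libraries overlap.

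Effector cytokines and chemokines divided by week. At 12 weeks 10 of the group were measured and only Xcl1 was called, higher in MASH, with a median log2 ratio of 0.02. At 24 weeks 11 were measured, of which Ccl3, Ccl4, Ccl5, Ifng and Tnf were called lower and Xcl1 higher, with a median of -0.53. Ifng, the cytokine interferon-gamma, stood at 280 CPM in 24-week MASH against 642 CPM in 24-week chow, a ratio of 0.435 (0.378 to 0.500). Its hashtags ran from 223 to 332 CPM in MASH against 470 to 978 CPM in chow, without overlap, and the ratio stayed between 0.365 and 0.511 under every alternative tried. At 12 weeks Ifng was at 487 CPM in MASH against 421 CPM in chow (ratio 1.16, 1.03 to 1.30), short of 1.5-fold.

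Ccl4, an inflammatory chemokine, fell to 2855 CPM in 24-week MASH against 5431 CPM in 24-week chow, a ratio of 0.526 (0.503 to 0.549). The Ccl4 hashtags ran from 2357 to 3536 CPM in MASH against 3902 to 7406 CPM in chow, without overlap, and the ratio kept between 0.465 and 0.636. Ccl3, a chemokine of the same family, was at 1106 CPM in MASH against 1964 CPM in chow (ratio 0.563), or 0.709 in thinned cells, which ends the call. Ccl5, the most abundant chemokine of these cells, was at 11096 CPM in MASH against 18068 CPM in chow (ratio 0.614, 0.600 to 0.628). The Ccl5 call ended in thinned cells (0.912), by the mean over cells (0.754), without the deepest cells (0.751) and without cells rich in other-cell UMIs (0.717). At 12 weeks the ratios of Ccl3, Ccl4 and Ccl5 were 0.867, 0.854 and 1.01, and none was called. Tnf, the cytokine tumour necrosis factor, had 77.8 CPM in 24-week MASH against 137 CPM in 24-week chow (ratio 0.568, 0.428 to 0.749), or 0.861 with a threshold of 1 UMI over Klra8, Klra4 and Eomes.

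Xcl1, the ligand of XCR1 on type 1 conventional dendritic cells, was higher in MASH at both weeks. It was at 893 CPM in 12-week MASH against 524 CPM in 12-week chow (ratio 1.70, 1.55 to 1.88) and at 846 CPM in 24-week MASH against 446 CPM in 24-week chow (ratio 1.89, 1.70 to 2.11). Thinned cells gave Xcl1 ratios of 1.21 at 12 weeks and 1.47 at 24 weeks, and the mean over cells gave 1.47 at 12 weeks, which end those calls. Against chow hashtags 5 to 8 only, the 24-week Xcl1 ratio was 1.44. Hashtags overlapped between the arms at both weeks, with 615 to 965 CPM in MASH against 438 to 792 CPM in chow at 12 weeks. The same gene was more abundant in ILC1-like cells, at 2212 CPM in 12-week MASH against 2601 CPM in 12-week chow, and 2251 CPM in 24-week MASH against 2184 CPM in 24-week chow.

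Among the Ly49 receptors outside the rule, 4 were measured and Klra9 was called lower at both weeks. Klra9 stood at 239 CPM in 12-week MASH against 371 CPM in 12-week chow (ratio 0.645, 0.562 to 0.739). It was at 185 CPM in 24-week MASH against 452 CPM in 24-week chow (ratio 0.410, 0.345 to 0.486). In thinned cells the 24-week Klra9 ratio was 0.95, and without the deepest cells the 12-week ratio was 0.694, so each call ended under at least 1 alternative. Klra3 had ratios of 0.942 and 0.712 at 12 and 24 weeks, Klra7 (Ly49G, inhibitory) 1.03 and 0.811, and Klra1 (Ly49A, inhibitory) 1.35 and 1.10. The rule genes themselves, given as a description, had 1108 CPM of Klra8 in 12-week MASH against 1083 CPM in 12-week chow, and 694 CPM in 24-week MASH against 1149 CPM in 24-week chow. Klra4 had 597 CPM in 12-week MASH against 766 CPM in 12-week chow, and 527 CPM in 24-week MASH against 789 CPM in 24-week chow. Eomes had 336 CPM in MASH and 371 CPM in chow at 12 weeks, and 244 CPM in MASH and 271 CPM in chow at 24 weeks. Ncr1 had 409 CPM in MASH and 595 CPM in chow at 12 weeks, and 510 CPM in MASH and 554 CPM in chow at 24 weeks.

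The other NK receptors and their signalling partners moved little. Of 20 NK identity genes, Car2, a carbonic anhydrase, was called higher at both weeks, and Gzma, Klrb1b and Klrc2 were called lower at 24 weeks. Both Car2 calls ended under some alternatives, with ratios down to 1.40 at 12 weeks and 1.22 at 24 weeks. Klrb1b, an inhibitory receptor of the NKR-P1 family, was at 76.8 CPM in 24-week MASH against 147 CPM in 24-week chow (ratio 0.521, 0.393 to 0.685), or 0.677 without the deepest cells, which ends the call. Klrc2, a partner of CD94 in activating receptors, had a ratio of 0.657 at 24 weeks and 1.25 at 12 weeks. Klrd1 (CD94) had ratios of 1.05 and 0.838, and Klrk1 (NKG2D) 0.941 and 0.800, at 12 and 24 weeks. None of 16 measured adaptor and signalling genes was called at 12 weeks, and 1, the phosphatase gene Ptpn6, was called higher at 24 weeks (158 CPM in MASH against 103 CPM in chow, ratio 1.53). Among cytokine receptors and their signalling genes, none of 16 was called at 12 weeks. At 24 weeks Il18rap, a chain of the interleukin-18 receptor, was the 1 called of 14, at 232 CPM in MASH against 367 CPM in chow (ratio 0.634). The Il18rap call ended without the deepest cells (0.755) and by the mean over cells (0.699). Il2rb, the chain shared by the interleukin-2 and interleukin-15 receptors, had ratios of 1.01 and 1.03.

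Several genes of early NK cells were higher in MASH. Of 10 measured, 4 were called higher at 12 weeks (Ctla2a, Emb, Thy1 and Xcl1) and 7 at 24 weeks (those 4 with Cd27, Cd7 and Tcf7), none lower, and the median log2 ratios were 0.55 and 0.70. Ratios of 8 of the 10 were above 1 at both weeks. In thinned cells the early group's median was 0.05 at 12 weeks and 0.51 at 24 weeks. These medians cover only genes that kept the UMI minimum. At 12 weeks Thy1, Emb, Cd27 and Tcf7 did not keep it under every alternative. A change of depth and a change of genes therefore cannot be told apart in the 12-week median. Thy1, Cd7, Cd27 and Tcf7 are also T cell genes. NK cells with 5 or more UMIs of the T cell list were 4.74% in 12-week MASH against 0.242% in 12-week chow. At 24 weeks they were 5.35% in MASH against 1.09% in chow. This cut was not scaled for depth, and MASH NK cells were deeper. As CPM, the T cell list summed to 332 in MASH against 259 in chow at 12 weeks, and to 272 against 292 at 24 weeks. With no CD3 UMI allowed, the medians of the early group were 0.43 at 12 weeks and 0.66 at 24 weeks.

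Thy1, the surface protein CD90, was at 141 CPM in 12-week MASH against 73.6 CPM in 12-week chow (ratio 1.91, 1.48 to 2.49). At 24 weeks it was at 145 CPM in MASH against 74.1 CPM in chow (ratio 1.96, 1.5 to 2.58), or 1.49 with at least 3 UMIs over Klra8, Klra4 and Eomes. Thy1 hashtags of 12-week MASH, at 97.1 to 170 CPM, lay above those of 12-week chow, at 59.8 to 75.2 CPM, while at 24 weeks they overlapped, at 41.5 to 312 CPM in MASH against 18.0 to 147 CPM in chow. Emb, which encodes the adhesion protein embigin, had 216 CPM in 12-week MASH against 141 CPM in 12-week chow (ratio 1.54) and 203 CPM in 24-week MASH against 59.6 CPM in 24-week chow (ratio 3.4, 2.59 to 4.5). The 24-week Emb ratio kept between 2.64 and 3.62 under the alternatives that left enough UMIs, while the 12-week one was 1.49 with no CD3 UMI allowed. Cd7, a surface protein shared with T cells, rose at 24 weeks to 630 CPM in MASH against 403 CPM in chow (ratio 1.56, 1.39 to 1.76) and kept between 1.51 and 1.77. Ctla2a, a cathepsin inhibitor, was close to the threshold at both weeks (1.5 and 1.53) and fell below it under most alternatives at 24 weeks. Tcf7, the gene of the transcription factor TCF-1, had a ratio of 1.70 at 24 weeks and 0.967 against chow hashtags 5 to 8 only, where the direction turned. Kit, a growth factor receptor of this group, held too few UMIs for a call, with 59.4 CPM in 24-week MASH against 12.9 CPM in 24-week chow (ratio 4.61, 2.61 to 8.59).

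Several genes of late NK cells were lower in MASH. Of 12 measured, 2 were called lower at 12 weeks (Ly6c2 and S1pr5) and 6 at 24 weeks (those 2 with Gzmb, Itgam, Klrg1 and Rap1gap2), none higher, with median log2 ratios of -0.17 and -0.56. In thinned cells the late group's medians were 0.08 at 12 weeks, where the sign turned, and -0.03 at 24 weeks. These medians too cover only genes that kept the UMI minimum. S1pr5 and Klrg1 did not keep it under every alternative at either week, nor did Itgam at 24 weeks. The medians therefore do not show whether the same 12 genes lost their shift. S1pr5, the receptor through which mature NK cells leave tissues, was at 86.5 CPM in 12-week MASH against 156 CPM in 12-week chow (ratio 0.555, 0.445 to 0.692). Hashtags of S1pr5 at 12 weeks ran from 88.2 to 109 CPM in MASH against 160 to 186 CPM in chow, without overlap. The ratio kept between 0.546 and 0.586 under the alternatives that left enough UMIs. At 24 weeks S1pr5 was at 98.3 CPM in MASH against 152 CPM in chow (ratio 0.646), a call that ended without the deepest cells (0.763) and by the mean over cells (0.808), and its hashtags overlapped, at 47.9 to 189 CPM in MASH against 92.9 to 214 CPM in chow.

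Ly6c2, a surface antigen of mature lymphocytes and monocytes, had 597 CPM in 12-week MASH against 962 CPM in 12-week chow (ratio 0.621, 0.570 to 0.676). At 24 weeks it had 673 CPM in MASH against 1263 CPM in chow (ratio 0.533, 0.486 to 0.584), and thinned cells gave 0.752 and 0.883 at the 2 weeks, which ends both calls. Klrg1, the inhibitory receptor of terminally mature cells, was at 108 CPM in 24-week MASH against 191 CPM in 24-week chow (ratio 0.563, 0.443 to 0.711), or 0.774 by the mean over cells. Itgam, which encodes CD11b, was at 152 CPM in MASH against 234 CPM in chow at 24 weeks (ratio 0.646), or 0.734 without the deepest cells. Both 24-week calls therefore ended under those alternatives, and neither gene was called at 12 weeks, where the ratios were 0.854 for Klrg1 and 1.05 for Itgam.

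The same lists were read cell by cell. Each cell was thinned to 1500 UMIs and its early-list UMIs were taken from its late-list UMIs, cells below 0 being placed at the early end. This left out 19 MASH and 59 chow cells at 12 weeks, and 6 MASH and 81 chow cells at 24 weeks. The early end held 34.3% (30.1% to 38.6%) of 508 NK cells in 12-week MASH against 25.1% (20.7% to 30%) of 354 in 12-week chow, an odds ratio of 1.55 (1.14 to 2.13). It held 35.4% (28.4% to 42.8%) of 181 NK cells in 24-week MASH against 15.9% (12.3% to 20.0%) of 378 in 24-week chow, an odds ratio of 2.90 (1.88 to 4.46). Between 9.60% and 12.4% of cells lay within 1 UMI of the boundary, so the ends are ranges of 1 score and not types. Without Gzmb, Serpinb9, Lgals1 and Cd69, genes that activation also changes, the odds ratios were 1.46 and 2.31. The cells had qualified at their full depth, so the difference in depth at the rule remains in these values.

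**Figure D3:**
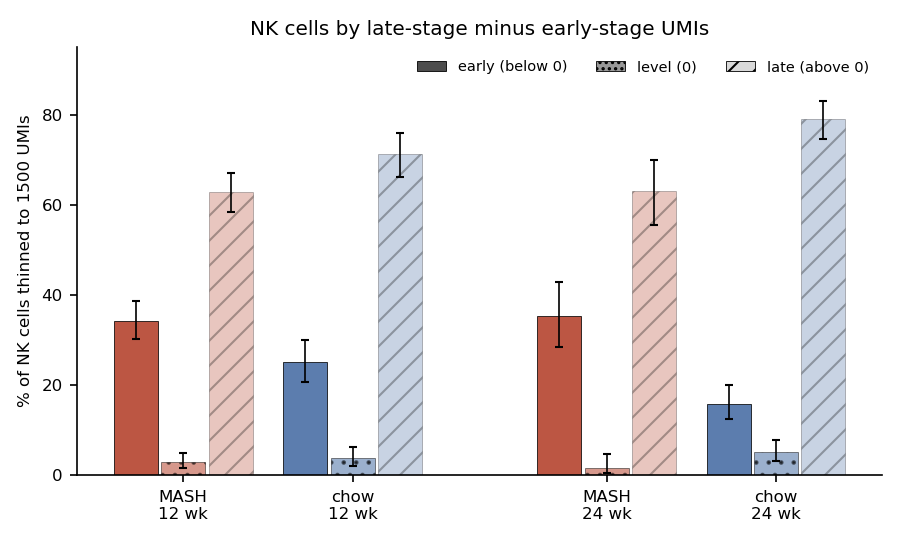
Conventional NK cells thinned to 1500 UMIs, split by late-list minus early-list UMIs into the early end (below 0), level (0) and the late end (above 0), as % of cells with exact 95% binomial intervals. The early end held 35.4% of cells in 24-week MASH and 15.9% in 24-week chow.

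Some genes of neither list kept the same direction along this axis in every library, and others did not. Gzma was 1.94 to 5.62 times as high at the late as at the early end over the 4 libraries, Prf1 2.03 to 2.97 times, Klf2 1.63 to 2.61 times, Klra9 1.82 to 2.56 times and Il18rap 1.47 to 2.09 times. Cxcr3, a chemokine receptor, was at 0.11 to 0.26 of its early-end level in late-end cells, Gzmm at 0.26 to 0.51 and Ccr2 at 0.42 to 0.67. The Gzmm intervals reached past 1 in 12-week chow (0.198 to 1.38) and in 24-week MASH (0.126 to 1.35). Trbc1, a gene of the T cell receptor, was at 0.61 to 0.79 of its early-end level, with intervals that reached 1 in the chow libraries. The part of T cell RNA in the early end was not tested. Ifng was also lower at the late end in all 4 libraries, at 0.75 to 0.88, but its interval was clear of 1 only in 24-week chow (0.627 to 0.913). B2m, at 0.81 to 0.89, and Gapdh, at 0.75 to 0.97, were lower there in all 4 libraries too. The shift was thus not particular to Ifng. Ccl4 and Fasl were higher at the late end in 3 of 4 libraries, and in 24-week chow they were at 0.616 and 0.894 of their early-end level. Tmem176b, Klra7, Klra1, Klrd1, Klre1, Itga2, Klra4 and Ncr1 also changed direction between libraries.

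Chemokine receptors and adhesion genes showed 1 call in each direction at each week, Ccr2 higher and S1pr5 lower, among 14 genes measured at 12 weeks and 15 at 24 weeks. Ccr2, the receptor of monocyte chemoattractant CCL2, was at 189 CPM in 12-week MASH against 123 CPM in 12-week chow (ratio 1.53, 1.25 to 1.88) and at 224 CPM in 24-week MASH against 127 CPM in 24-week chow (ratio 1.76, 1.43 to 2.18). The 12-week Ccr2 ratio was 1.41 with no CD3 UMI allowed. The 24-week one kept between 1.55 and 2.14 under the alternatives that left enough UMIs.

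Of the lineage transcription factors, 17 were measured at 12 weeks and 13 at 24 weeks. Klf2, which keeps lymphocytes quiescent and controls their trafficking, was called lower at 12 weeks, at 1722 CPM in MASH against 2608 CPM in chow (ratio 0.660, 0.628 to 0.695). Most alternatives ended the Klf2 call, with ratios up to 0.804 in thinned cells, and at 24 weeks its ratio was 0.678. Gata3, a factor of ILC1 and helper cells, was called higher at 12 weeks (63.7 CPM in MASH against 42.1 CPM in chow, ratio 1.51) and stood at 0.930 at 24 weeks. Tbx21, the gene of T-bet, had ratios of 0.941 and 0.928. Zeb2, which drives late maturation, had ratios of 0.875 and 0.713, with neither called.

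Checkpoint genes gave no call among 9 measured at 12 weeks and 1 among 6 at 24 weeks. That gene, Cd160, a receptor also carried by ILC1, was at 97.3 CPM in 24-week MASH against 57.2 CPM in 24-week chow (ratio 1.70, 1.24 to 2.35). The Cd160 ratio kept between 1.63 and 2.53 under the alternatives that left enough UMIs. Crtam, an activation-induced adhesion molecule, was under the UMI minimum, with 70.7 CPM in 24-week MASH against 16.1 CPM in 24-week chow (ratio 4.38, 2.63 to 7.62), and 71.0% of its MASH UMIs lay in 5 cells. Markers of ILC1 within the NK cells were low. Cxcr6 was at 4.55 CPM in 12-week MASH and 13.4 CPM in 12-week chow, and at 16.4 CPM in 24-week MASH and 7.25 CPM in 24-week chow, against 324 CPM in ILC1-like cells of 24-week MASH. Tmem176b, also in the ILC1 definition and made by macrophages, was at 118 CPM in 24-week MASH against 24.2 CPM in 24-week chow (ratio 4.87, 3.24 to 7.55), with 79.1% of the MASH UMIs in 5 cells. At 12 weeks its ratio of 1.82 became 0.894 once Scrublet-marked cells were left out.

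Beyond the lists, genes were ranked by the smaller of their 2 log2 ratios. Over both weeks 3265 genes could be compared, of which 0.766% were called higher and 0.919% lower in MASH at both. Of the first 12 in each direction, all but Kcnj8 and Phactr3 were below their level over all cells in at least 1 library, so other cells held more of their RNA. Among the higher ones were the haemoglobins Hbb-bs, Hbb-bt, Hba-a1 and Hba-a2, the plasma protein gene Clu, and Mgst1, App, Cmtm7, Ifi27l2a, Tmem176b and Thy1. Thy1 was below its all-cell level in every library, at 141 CPM in NK cells and 184 CPM over all cells in 12-week MASH. Among the lower ones were Fabp1, Gnmt, Car3, Ass1, Serpina1e, Gsta3, Rida, Phyh and Cyb5a, genes of hepatocyte metabolism or secretion. Myc, a growth-control transcription factor, was at 70.8 CPM in 12-week MASH against 34.4 CPM in 12-week chow (ratio 2.06) and at 84.0 CPM in 24-week MASH against 46.7 CPM in 24-week chow (ratio 1.80), and it kept at least 1.65 under the alternatives that left enough UMIs.

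A second ranking, added after these names were seen, kept only genes whose NK level was at or above the level over all cells in every library. At 12 weeks 1.13% of the 1682 genes kept were called higher and 2.5% lower, and at 24 weeks 1.41% of 1420 were called higher and 4.37% lower. It left 1413 genes at both weeks, of which 5 (0.354%) were called higher and 6 (0.425%) lower at both. The higher ones were Xcl1, Atp8b4, Ccr2, Car2 and Ctla2a, and the lower ones Kcnj8, Phactr3, Klra9, S1pr5, Fasl and Ddit3. Kcnj8, a subunit of a potassium channel, was at 30.3 CPM in 12-week MASH against 65.0 CPM in 12-week chow (ratio 0.467, 0.324 to 0.670) and at 32.8 CPM in 24-week MASH against 69.3 CPM in 24-week chow (ratio 0.473, 0.305 to 0.717). Under the alternatives that left enough UMIs, the Kcnj8 ratio ran from 0.439 to 0.523 at 12 weeks and from 0.360 to 0.591 at 24 weeks. Atp8b4, a phospholipid flippase, was at 70.8 CPM in 12-week MASH against 44.0 CPM in 12-week chow (ratio 1.61, 1.15 to 2.30). Its 24-week ratio was 1.62 (1.07 to 2.46), on 56 UMIs in MASH and 44 UMIs in chow. Only 4 alternatives left enough UMIs to compute the 24-week Atp8b4 ratio again. Phactr3 had ratios of 0.548 and 0.558, the second being 0.704 without the deepest cells. Ddit3, a stress-response transcription factor, had ratios of 0.663 and 0.627, which reached 0.742 and 0.691 under alternatives. Those values end the 24-week Phactr3 call and both Ddit3 calls.

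**Figure D4:**
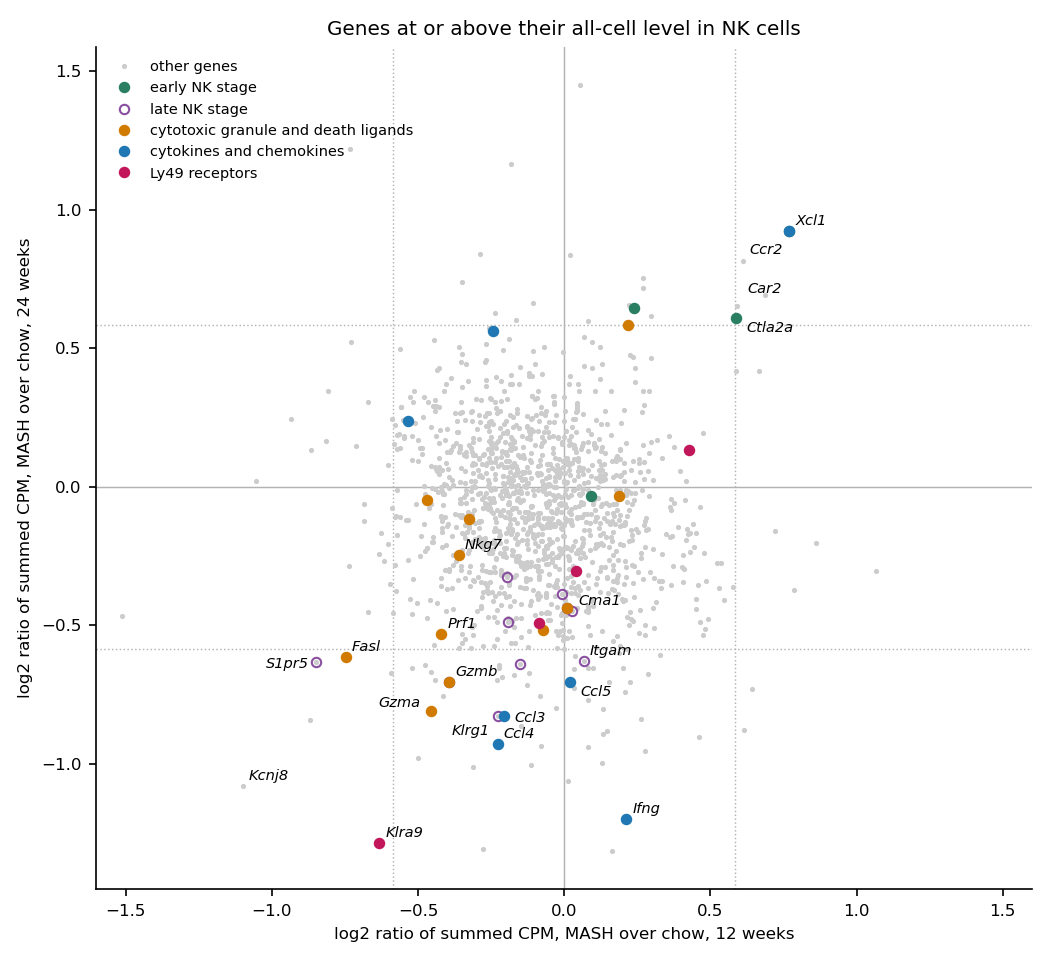
Log2 ratio of summed CPM, MASH over chow, at 12 weeks (x) and 24 weeks (y) for the 1413 genes at or above their all-cell level in NK cells, with the gene groups coloured and dotted lines at 1.5-fold. Xcl1, Ccr2 and Ctla2a sit in the upper right, Klra9, S1pr5, Fasl and Kcnj8 in the lower left, and Ifng at 1.16-fold on x and 0.435-fold on y.

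RNA of other cells differed between the arms. T cell genes summed to 332 CPM in MASH against 259 CPM in chow at 12 weeks, and 272 CPM in MASH against 292 CPM in chow at 24 weeks, and Trbc1, a T cell receptor constant chain, was called higher at 12 weeks (ratio 1.61). B and plasma cell genes summed to 1446 CPM in MASH against 953 CPM in chow at 12 weeks, and 2599 CPM in MASH against 2956 CPM in chow at 24 weeks, with Cd74, H2-Aa and H2-Ab1 of the MHC class II pathway called higher at 12 weeks. Hepatocyte genes summed to 271.5 CPM in 12-week MASH NK cells against 764 CPM in 12-week chow, and 571 CPM in 24-week MASH against 2264 CPM in 24-week chow, and all 12 lay below their all-cell level in every library. Macrophage and monocyte genes summed to 970 CPM in MASH against 739 CPM in chow at 12 weeks, and 2276 CPM in MASH against 474 CPM in chow at 24 weeks. Of these 11 genes, 2 were at 0 in 12-week MASH, 5 in 12-week chow, 4 in 24-week MASH and 6 in 24-week chow. Neutrophil genes summed to 14.7 CPM in MASH and 2.87 CPM in chow at 12 weeks, and 6008 CPM in MASH and 2201 CPM in chow at 24 weeks. These sums rested on few cells: 99.4% of the 823 Ngp UMIs and 99.9% of the 1139 Camp UMIs of 24-week MASH lay in 1 cell. Haemoglobin and platelet genes summed to 8099 CPM in MASH against 1139 CPM in chow at 12 weeks, and 5057 CPM in MASH against 8.06 CPM in chow at 24 weeks. All 2443 Hbb-bs UMIs of 24-week MASH lay in 6 cells, and the 24-week chow NK cells held none, so the gene was at least 1035-fold higher in MASH by a floor of 3 UMIs per library. Cells with 5 or more UMIs of macrophage, neutrophil, endothelial or stellate genes were counted by a cut not scaled for depth. They were 5.69% of NK cells in 12-week MASH and 3.15% in 12-week chow. At 24 weeks such cells were 17.6% in MASH and 5.66% in chow. The ratios without these cells are given above where they end a call, and any further part of this RNA in the results was not tested.

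Called cell cycle genes were lower in MASH at 12 weeks and higher at 24 weeks. Of 8 cell cycle genes measured at 12 weeks, Stmn1 and Tubb5 were called lower in MASH, and of 7 at 24 weeks Hmgb2, Mki67, Pclaf and Top2a were called higher, with medians of -0.20 and 0.66. Mki67, a marker of dividing cells, was at 103 CPM in 24-week MASH against 37.9 CPM in 24-week chow (ratio 2.73, 1.91 to 3.95), and 77.2% of the MASH UMIs lay in 5 of 187 cells. Without cells above 10000 UMIs the 24-week median of the group was -0.29, so its sign turned. That median covers only genes that kept the UMI minimum, so it does not show whether the same genes turned. Under the alternatives that left enough UMIs, the 24-week ratio kept between 2.09 and 3.78 for Mki67 and between 1.30 and 1.84 for Top2a. Of 20 genes that tissue dissociation raises, Egr1, Hspa1a and Hspa1b were called higher in MASH at 12 weeks, while Dnajb1, Hsp90aa1, Hspa1a, Hspa1b and Jund were called lower at 24 weeks. The group's median log2 ratios were -0.01 and -0.28, and 11 of the 20 genes had ratios below 1 at both weeks. Hspa1a, an inducible chaperone, was at 56.1 CPM in 12-week MASH against 10.5 CPM in 12-week chow, and at 521 CPM in 24-week MASH against 816 CPM in 24-week chow. Hspa1a was thus higher at 24 weeks in both arms, and the part of dissociation in other genes was not tested.

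Metabolic and antigen-presentation genes stayed near their background. None of 13 glycolysis genes was called at 12 weeks and 1 of 11, Pgam1, higher at 24 weeks. Of the lipid-handling genes 4 and 3 of 21 held enough UMIs, with Fabp4 alone called, higher at 24 weeks. Nlrc5, the activator of MHC class I genes, was the 1 called of 12 class I genes at 12 weeks (ratio 1.52, 0.998 to 2.36), and none of 11 was called at 24 weeks. Of 10 interferon-response genes, Gbp4 and Ifi27l2a were called higher and Isg15 lower at 12 weeks, and Ifi27l2a alone was called at 24 weeks. Isg15, an interferon-induced ubiquitin-like modifier, was at 50.6 CPM in 12-week MASH against 92.8 CPM in 12-week chow (ratio 0.545, 0.408 to 0.728). Plaur, the gene of the receptor uPAR on which the series centred, was rare in NK cells. It was at 20.2 CPM in 12-week MASH and 19.1 CPM in 12-week chow, under the UMI minimum, and at 68.6 CPM in 24-week MASH against 32.2 CPM in 24-week chow (ratio 2.13, 1.42 to 3.23). The 24-week Plaur UMIs came from 17 of 187 MASH cells and 16 of 459 chow cells, with 70.1% and 72.5% of them in 5 cells.

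Between the weeks, the same genes can be followed within each arm, though these values share their libraries with the comparisons above. Ifng at 24 weeks was 0.574 times (0.500 to 0.657) its 12-week level in MASH and 1.53 times (1.36 to 1.72) in chow. Ccl4 was 0.560 times its 12-week level in MASH and 0.909 times in chow, and Ccl5 0.612 times in MASH and 1.01 times in chow. Gzma was 0.759 times in MASH and 0.968 times in chow. Klf2 was lower at 24 weeks in both arms, at 0.656 times in MASH and 0.639 times in chow, and Fasl likewise at 0.563 and 0.514 times. Thy1 was at 1.03 times in MASH and 1.01 times in chow. Emb was at 0.937 times in MASH and 0.424 times in chow.

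Compared with ILC1-like cells of the same library, NK cells carried the granule and maturation genes. These ratios describe 2 populations cut by a rule, with no test. Gzma was 14.8 times (13.8 to 15.8) as high in NK as in ILC1-like cells in 12-week MASH, 4.28 times (4.04 to 4.54) in 12-week chow, 17.3 times (16.3 to 18.3) in 24-week MASH and 3.76 times (3.61 to 3.92) in 24-week chow. The larger MASH ratios went with less Gzma in ILC1-like cells, at 571 CPM in 12-week MASH against 2707 CPM in 12-week chow and 371 CPM in 24-week MASH against 2986 CPM in 24-week chow. Prf1 was 9.22, 6.24, 7.37 and 5.67 times as high in NK cells, in the same order of libraries. Klf2 was 2.95 to 3.38 times as high, while Gzmb differed little, at 1.06 to 1.64 times.

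S1pr5 and Klrg1 all but marked the NK side, with 1 to 15 UMIs of S1pr5 and 2 to 39 UMIs of Klrg1 in the ILC1-like cells of a library. In the other direction Xcl1 was at 0.404 of the ILC1-like level in 12-week MASH, 0.201 in 12-week chow, 0.376 in 24-week MASH and 0.204 in 24-week chow. Cd7 was at 0.308, 0.175, 0.281 and 0.140 of it, and Cd160 at 0.278, 0.147, 0.339 and 0.138, in the same order of libraries. The NK level of these 3 genes lay nearer to the ILC1-like level in MASH than in chow at both weeks. Ncr1, which chose cells of both kinds, was level between them, at 0.873 to 1.15 times.

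**Figure D5:**
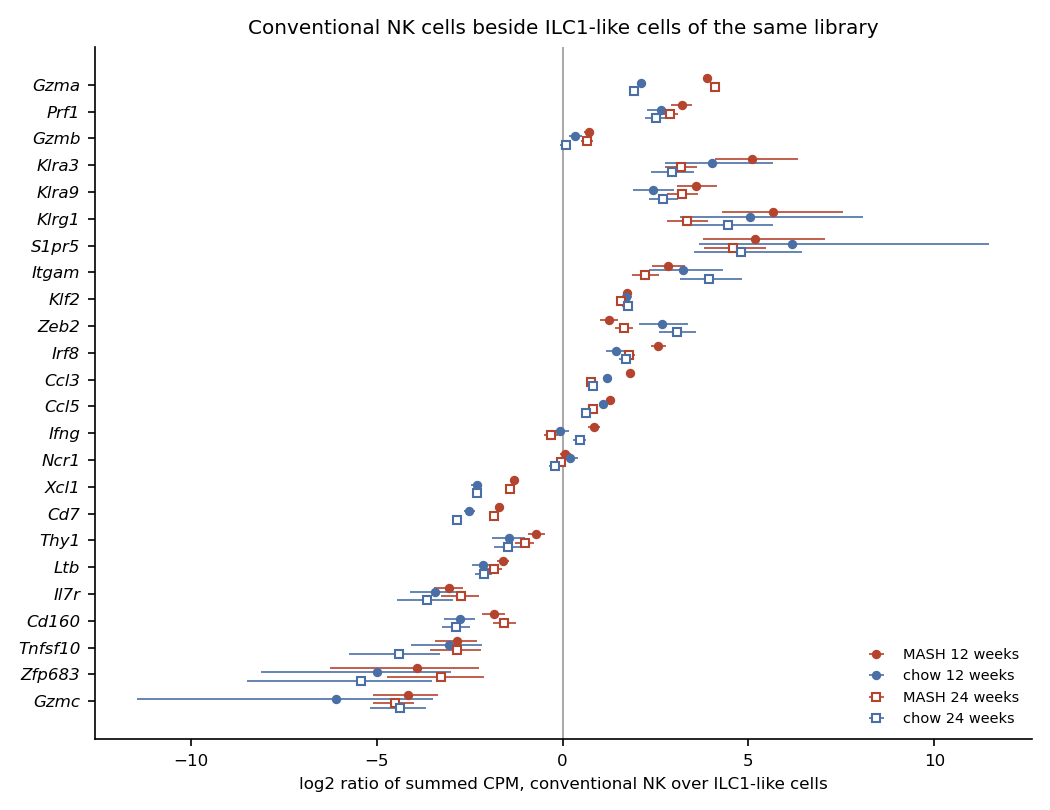
Log2 ratio of summed CPM, conventional NK over ILC1-like cells of the same library, for 24 genes, with exact 95% intervals (filled circles 12 weeks, open squares 24 weeks, red MASH, blue chow). Gzma was 14.8 and 17.3 times as high in NK cells in the MASH libraries and 4.28 and 3.76 times in the chow libraries.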

How the data were processed

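Single-cell 5' gene expression libraries of liver non-parenchymal cells were deposited as raw UMI counts per gene and barcode by the authors, with hashtag counts beside them. By the header of each deposited matrix, Cell Ranger 5.0.1 was used for 3 libraries and Cell Ranger 4 for the 12-week MASH library. Version and group therefore cannot be told apart for that library. Ambient RNA was not removed. Cells were filtered and chosen by the rule given above on these counts, and Scrublet (scanpy 1.11.5) marked doublets without removing them. Counts were summed over NK cells per library and divided by the NK total to give CPM. Ratios carry exact conditional intervals at 95%, and genes with at least 100 UMIs over a pair were called at 1.5-fold. With 1 library per group no test across samples was possible. Genes were named from 27 lists of 382 genes and by the smaller of the ratios of both weeks. The members and lists were chosen with earlier results of these data known. The scripts were tested on simulated data. Alternatives covered filters, the rule, doublets, hashtags, depth, scaling (edgeR 4.0.16 TMM factors) and thresholds. Upstream windows came from RefSeq tables of GRCm38.p6.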

Additional observations from a re-analysis of the deposited data

Results flagged for a closer look

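The share of conventional NK cells went in opposite directions at the 2 weeks, with a MASH over chow ratio of 1.37 at 12 weeks and 0.557 at 24 weeks, and the difference between the weeks was not tested. The 12-week ratio was 1.05 with cells thinned to 1000 UMIs before the rule.

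Among genes outside the rule and at or above their all-cell level in every library, 3 were called in opposite directions. These differences were not tested either. Hspa1a and Hspa1b, named above, were also called in opposite directions but lay outside that set. Ahsa2 had a MASH over chow ratio of 1.53 at 12 weeks and 0.545 at 24 weeks. Tulp4 had a ratio of 1.56 at 12 weeks and 0.603 at 24 weeks. H2afx, a histone variant gene, had a ratio of 0.602 at 12 weeks and 2.33 at 24 weeks.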

How the results depend on the processing

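No paired analysis was possible because each group had 1 library. Of 110 recomputed gene counts 63 stayed within 1.5 times, and of 964 recomputed ratios of single genes 2 called ones turned direction, while ratios short of a call, such as Ifng and Cd7 at 12 weeks, also crossed 1. Thinning to 1000 UMIs before the rule gave NK share ratios of 1.05 at 12 weeks and 0.435 at 24 weeks, a 12-week NK per ILC1-like odds ratio of 0.803, 36 genes higher and 17 lower at 12 weeks, 9 higher and 27 lower at 24 weeks, and 1 higher and 0 lower at both, against 144, 157, 120, 168, 25 and 30. The 12-week medians turned to 0.079 for the late genes and 0.083 for the cell cycle genes there. The 24-week cell cycle median turned to -0.29 without cells above 10000 UMIs. Each median covers only genes that kept the UMI minimum, so its genes can differ between alternatives. Without Scrublet-marked cells Tmem176b at 12 weeks turned to 0.894, and against chow hashtags 5 to 8 Tcf7 at 24 weeks turned to 0.967.

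Genes higher and lower at both weeks numbered 15 and 9 without Scrublet-marked cells, 14 and 11 with 1 hashtag, and 9 and 4 with both filters, which left 103 lower at 12 weeks and 77 higher at 24 weeks. There were 18 lower at both with at least 3 rule UMIs, and 16 higher at both with no CD3 UMI. Chow hashtags 1 to 4 gave a 24-week share ratio of 0.438, an odds ratio of 0.222 and 15 lower at both, and hashtags 5 to 8 an odds ratio of 0.121 and 11. Leaving out cells rich in other-cell UMIs gave 57 higher at 24 weeks and 15 higher at both, and leaving out cells above 10000 UMIs gave 64 and 16. In the order above, a minimum of 30 UMIs gave 527, 619, 657, 643, 95 and 101 genes, and a minimum of 300 UMIs 50, 31, 34, 43, 12 and 7. These minimums also change how many genes are compared, so the counts are not shares. In the same order, a 2-fold threshold gave 28, 23, 41, 47, 5 and 10. Genes at or above their all-cell level gave 19, 42, 20, 62, 5 and 6. TMM factors left 103 lower at 12 weeks. Beyond the construction of each alternative, the cause was not tested. Depth limits most of all the 187 NK cells of 24-week MASH.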
